A study of Mus musculus with 4 samples.

Results

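The genes described here are the 7 Senp protease genes of the mouse (Senp1, Senp2, Senp3, Senp5, Senp6, Senp7 and Senp8) and 3 genes whose proteins bind or carry SUMO (Rnf4, Ranbp2 and Rangap1). They were chosen by gene name, and all 10 names were found once each among the 56035 gene rows of the deposited table. The tissue was the trigeminal ganglion, which holds the cell bodies of the facial sensory neurons with their glia, and the animals were male mice of strain C57BL/6, 8 weeks old. The K823R group bore a changed Trpv1, called transgenic in the genotype label and a knock-in in the protocol, and its littermate controls were wild type (WT). Each group had 2 libraries. The protocol speaks of 2 pairs of ganglia without saying whether they were pooled, and no label ties a library to separate animals, so the p-values below reflect the spread between these samples alone, and that spread may be technical.

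SUMO is a small protein that is joined to lysines of other proteins by a chain of activating, conjugating and ligating enzymes. The Senp proteases work against that chain: they trim newly made SUMO so that it can be attached, and they cut it off its targets again. Some proteins read the mark through short stretches that dock onto SUMO, and RNF4 is the known example that then marks SUMO-bearing proteins with ubiquitin. SUMO bears on this series in that K823 of the heat and capsaicin channel TRPV1 is the lysine that the allele replaces by arginine, and the series is about TRPV1 SUMOylation and itch. As background, 2 of the 10 genes differ from the rest in function: SENP8 is known to act on NEDD8, a relative of SUMO, and RANGAP1 is best known as a SUMO-modified protein.

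The Senp genes share an active site. For 6 of them, the coding sequences around the codon of the catalytic cysteine (TGT, in capitals) are shown because they let the members be compared at the active site; they are spliced reference sequence from GENCODE M21 transcripts on GRCm38, with 6 codons before and 7 after.
Senp1: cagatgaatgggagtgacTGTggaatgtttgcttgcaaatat
Senp2: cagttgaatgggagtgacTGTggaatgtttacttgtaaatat
Senp5: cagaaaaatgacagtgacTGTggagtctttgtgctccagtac
Senp6: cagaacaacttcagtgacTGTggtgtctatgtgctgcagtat
Senp7: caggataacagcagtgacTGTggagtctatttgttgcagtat
Senp8: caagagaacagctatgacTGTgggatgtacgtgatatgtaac

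Over 42 bases Senp1 and Senp2 were identical at 39, and Senp6 and Senp7 at 35. Senp5 and Senp6, of different subgroups, were identical at 34, so this window hardly separates them. Senp8 was identical to the other 5 at 20 to 26 bases. The marked codon encodes residue 599 of Senp1 (exon 17 of 18), 547 of Senp2, 707 of Senp5, 1049 of Senp6, 979 of Senp7 and 163 of Senp8, counted in the principal transcript. In each of these 6 genes it lies in the last exon or the one before it. For Senp1 its position is chr15:98045366-98045368 on the minus strand, and for Senp8, in exon 2 of 2, chr9:59737344-59737346 on the minus strand.

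The lysine codon that takes SUMO in Rangap1 and the codon that the allele changes in Trpv1 (AAG in both, in capitals) are shown because SUMO is commonly joined to a lysine that follows a large hydrophobic residue and is followed, after any residue, by glutamate. Both windows are reference sequence and encode leucine before the lysine and glutamate at that place after it.
Rangap1: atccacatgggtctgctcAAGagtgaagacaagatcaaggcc
Trpv1: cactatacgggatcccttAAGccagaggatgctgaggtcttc

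In Rangap1 this codon is residue 526, at chr15:81705660-81705662 on the minus strand. In Trpv1 it is the codon of K823, at chr11:73260454-73260456 on the plus strand, in exon 16 of 16. The deposited values hold no reads, so the codon itself was not read in these libraries and the level of Trpv1 is no check of the genotype.

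Rnf4 binds SUMO through short hydrophobic cores near the start of the protein. The codons of a pair of them, from residues 50 and 62, are in capitals, and both lie in exon 4 of 8 (chr5:34348675-34348686 and chr5:34348711-34348722, plus strand).
Rnf4 from residue 50: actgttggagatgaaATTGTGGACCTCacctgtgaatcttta
Rnf4 from residue 62: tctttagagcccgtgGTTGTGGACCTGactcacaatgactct

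The deposited values are TPM, an abundance per transcript length and scaled to one total per library, so levels can be compared between genes as well as between libraries. TPM keeps no read total, so depth is unknown. The 4 libraries listed 21838 to 22119 genes above 0. Sensory neuron markers were abundant in every library (Tubb3 at 1796 to 2263 TPM, Prph at 1721 to 1912 TPM), as the tissue label says, and the sum of the 10 neuronal markers ranged from 9647 TPM in WT replicate 2 to 11191 TPM in WT replicate 1. WT replicate 1 stood apart in markers of other cell types. The sum of the 8 central glial markers was 16.05 TPM in it against 215 to 309 TPM in the other libraries, and Mog was listed at 0. It was the lowest library for 8 of 8 central glial, 7 of 7 fibroblast and 7 of 7 macrophage markers. In summed red cell transcripts it was the highest, at 311 TPM against 147 to 203 TPM. K823R replicate 1 also stood apart, with summed fibroblast markers at 2831 TPM against 342 to 1066 TPM, mostly from Ptgds (2374 TPM). Of the central glial markers, Opalin was near the floor in every library (0 to 0.17 TPM), so its place shows little. The summed pituitary hormone transcripts were 2.54 and 4.80 TPM in the WT libraries, against 23.78 and 19.98 TPM in the K823R ones. Most of the K823R sums was Gh (17.08 and 12.03 TPM, against 0.25 and 1.15 TPM in WT), followed by Prl and Pomc. Prl was at 3.05 and 3.56 TPM in K823R, against 0 and 0.11 TPM in WT. The groups overlapped for Pomc and Tshb, Cga stayed below 1 TPM and Lhb was listed at 0 in every library. All differences below subtract WT from K823R on a log2(TPM + 1) scale and come from limma, fitted over the 15390 genes that averaged 1 TPM or more, without a term for these markers. The part of the markers in the results was not tested. In bulk tissue, fewer cells of a type and less RNA per cell cannot be told apart.

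All 10 genes were measurable, and for none did the difference between the genotypes pass the test. Their mean levels over the 4 libraries ran from 4.33 TPM for Senp1 to 146 TPM for Rangap1, a 33.7-fold span. All 10 passed the filter on low values, 5 were higher and 5 lower in K823R, and 0 passed limma at an adjusted p below 0.05 or had an unadjusted p below 0.05. Of all genes tested, 0.00650% passed and 4.76% had an unadjusted p below 0.05. Adjusted p ran from 0.918 to 0.997 over the 10 genes. Their median difference was -0.017, beside 0.026 for all genes tested, of which 57.4% were higher in K823R. An exact permutation test of a single gene cannot give a two-sided p under 0.333 with 2 libraries against 2, and none is given for these genes.

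**Figure D1:**
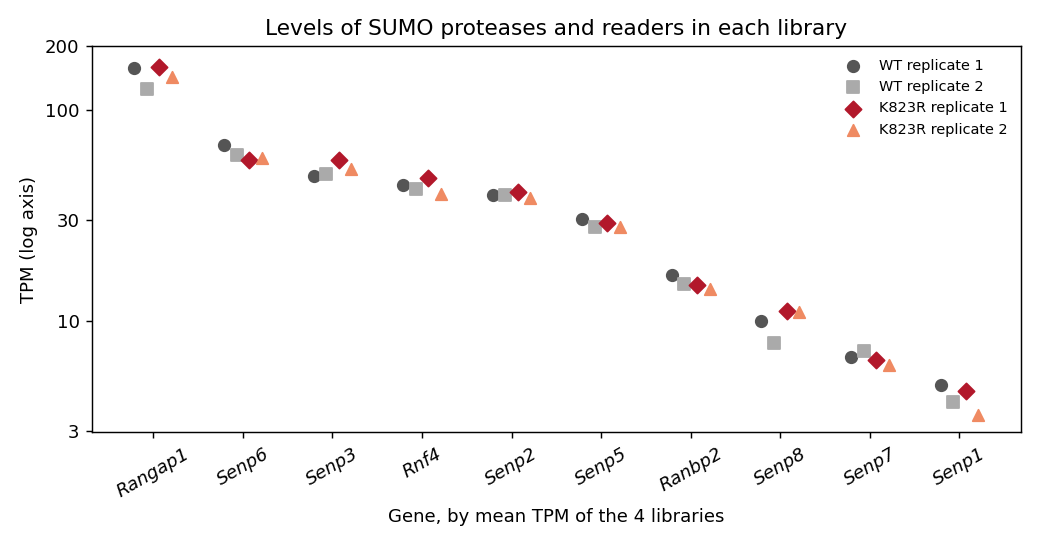
TPM (log axis) of the 10 genes in each of the 4 libraries, 1 point per library, ordered by mean level. The 4 points of a gene lie close together compared with the span between genes, from Senp1 at 3.58 to 4.99 TPM to Rangap1 at 126 to 159 TPM.

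The order of levels was Rangap1, Senp6, Senp3, Rnf4, Senp2, Senp5, Ranbp2, Senp8, Senp7 and Senp1. Of the 9 neighbouring steps in that order, 7 were apart, meaning that the ranges over the 4 libraries did not meet. The ranges met for Senp6 and Senp3 and for Rnf4 and Senp2, but within libraries Rnf4 was above Senp2 in 4 of 4 and Senp6 above Senp3 in 3 of 4. The same order was found in 3 of the 4 libraries, and in K823R replicate 1 Senp3 (57.91 TPM) stood just above Senp6 (57.57 TPM). Among all genes tested Rangap1 lay at the 92.7 percentile of mean TPM, Senp6 at 82.0, Ranbp2 at 50.7 and Senp1 at 23.3.

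Senp1 and Senp2, the nuclear proteases that both mature SUMO and remove it, and that are known to associate with the nuclear pore, stood at very different levels. Senp1 (chromosome 15) was at 4.99 and 4.12 TPM in the WT libraries, against 4.65 and 3.58 TPM in the K823R ones. The groups overlapped, with WT replicate 1 highest and K823R replicate 2 lowest, and the log2 difference was -0.12 (standard error, SE, 0.18, limma adjusted p = 0.951). It was 0.029 without K823R replicate 2. Senp2 (chromosome 16) was at 39.28 and 39.30 TPM in the WT libraries, against 40.75 and 38.07 TPM in the K823R ones. The WT libraries lay between those of K823R, and the difference was 0.0035 with SE 0.081 (limma adjusted p = 0.997). It is the smallest difference of the 10 genes, and its 95% interval of -0.21 to 0.22 is also the narrowest. Senp2 exceeded Senp1 by 7.87 to 10.6 times in each library.

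Senp3 and Senp5, the nucleolar proteases that prefer SUMO2 and SUMO3 and act in ribosome production, had differences of opposite sign. Neither passed the test, and the genes were not tested against each other. Senp3 (ENSMUSG00000005204) was at 48.48 and 49.27 TPM in the WT libraries, against 57.91 and 52.53 TPM in the K823R ones. The K823R libraries were the higher pair. Group means were 48.9 ± 0.559 TPM (WT) and 55.2 ± 3.80 TPM (K823R, SD, n = 2 each). On the log2 scale they differed by 0.17 with SE 0.085 and a 95% interval of -0.052 to 0.39 (limma adjusted p = 0.918). Leaving out WT replicate 1 gave 0.16, leaving out K823R replicate 1 gave 0.10, and leaving out K823R replicate 2 gave 0.24. Senp3 lies on the minus strand of chromosome 11 (chr11:69673115-69682084), the chromosome of Trpv1, with 3.55 Mb between the genes. None of the other 9 genes is on that chromosome. Senp5 (chromosome 16) was at 30.39 and 27.73 TPM in the WT libraries, against 28.89 and 27.64 TPM in the K823R ones. The groups overlapped, and the difference of -0.038 (SE 0.091, limma adjusted p = 0.973) was 0.026 without WT replicate 1. The ratio of Senp3 to Senp5 was 1.60 and 1.78 in WT and 2.00 and 1.90 in K823R, so the groups did not overlap for it. Senp3 alone was already apart, as were 34.0% of all genes tested, and the ratio was not tested.

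Senp6 and Senp7, which trim chains of SUMO2 and SUMO3, were both lower in both K823R libraries, as were 14.6% of all genes tested. Neither passed the test. Senp6 (chromosome 9) was at 67.94 and 60.62 TPM in the WT libraries, against 57.57 and 58.99 TPM in the K823R ones. WT replicate 1 was the highest library, and the difference was -0.14 with SE 0.088 and a 95% interval of -0.37 to 0.095 (limma adjusted p = 0.918). Without WT replicate 1 it was -0.056, and without WT replicate 2 it was -0.22. Senp7 (chromosome 16) was at 6.71 and 7.23 TPM in the WT libraries, against 6.51 and 6.19 TPM in the K823R ones. Here WT replicate 2 was the highest, and the difference was -0.12 with SE 0.12 (limma adjusted p = 0.935), -0.069 without WT replicate 2. Senp6 exceeded Senp7 by 8.38 to 10.1 times in each library, so each of the closely related pairs Senp1 with Senp2 and Senp6 with Senp7 held 1 abundant and 1 scarce gene, while Senp3 and Senp5 lay within 1.60 to 2.00 times of each other.

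The 6 proteases that act on SUMO together held 198 and 188 TPM in the WT libraries, against 196 and 187 TPM in the K823R ones. Replicate 1 held the larger sum in each group. Senp6 made up 29.3% to 34.3% of it, Senp3 24.5% to 29.5%, Senp2 19.9% to 20.9%, Senp5 14.7% to 15.4%, Senp7 3.31% to 3.84% and Senp1 1.91% to 2.52%. By subgroup, Senp3 with Senp5 held 39.9% and 40.9% of the sum in WT and 44.2% and 42.9% in K823R. Senp6 with Senp7 held 37.7% and 36.0% in WT and 32.6% and 34.9% in K823R, while Senp1 with Senp2 held 22.3% to 23.1% in all libraries. The nucleolar subgroup was thus higher and the chain-trimming subgroup lower in both K823R libraries. These are shares of one sum, in which a higher share of one lowers the others. Of the nucleolar pair only Senp3 had a higher share, since that of Senp5 was 15.4% and 14.7% in WT and 14.7% and 14.8% in K823R. Senp6 and Senp7 each had a lower share. These shares were chosen after the values were known and were not tested.

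**Figure D2:**
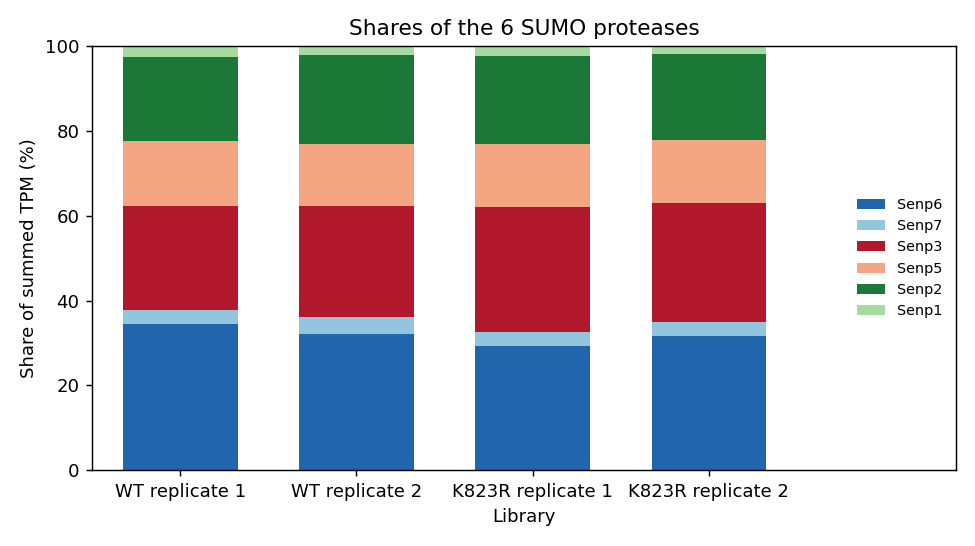
Stacked bars of the share (%) of the summed TPM of the 6 SUMO proteases held by each gene, 1 bar per library. Senp6, Senp3 and Senp2 fill most of each bar, and the Senp3 segment is 24.5% and 26.2% in WT and 29.5% and 28.1% in K823R.

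Senp8, the NEDD8 protease, had the widest difference of the 10 genes. It was at 9.95 and 7.83 TPM in the WT libraries, against 11.08 and 11.02 TPM in the K823R ones. The K823R libraries were nearly equal and lay above both WT libraries, of which WT replicate 2 was the lower. Group means were 8.89 ± 1.50 TPM (WT) and 11.05 ± 0.0424 TPM (K823R, SD, n = 2 each). On the log2 scale they differed by 0.29 with SE 0.14 and a 95% interval of -0.081 to 0.67 (limma adjusted p = 0.918). It was 0.14 without WT replicate 2 and 0.45 without WT replicate 1. Nedd8, which encodes the substrate that SENP8 matures and removes, was at 409 and 415 TPM in the WT libraries, against 379 and 356 TPM in the K823R ones (log2 difference -0.16, SE 0.068, limma adjusted p = 0.918). The ratio of Nedd8 to Senp8 was 41.1 and 53.0 in WT and 34.2 and 32.3 in K823R. The groups did not overlap for either transcript, as for 34.0% of all genes tested. Since the transcripts were apart in opposite directions, their ratio had to be apart too and adds nothing. The ratio was not tested.

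Of the readers, Rnf4 (chromosome 5), the ubiquitin ligase that targets SUMO-bearing proteins, was at 44.09 and 42.10 TPM in the WT libraries, against 47.62 and 39.99 TPM in the K823R ones. The K823R libraries were the highest and the lowest of the 4. The difference was 0.018 with SE 0.11 (limma adjusted p = 0.991), and it was -0.10 without K823R replicate 1 and 0.14 without K823R replicate 2.

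Ranbp2 and Rangap1 encode parts of 1 assembly on the cytoplasmic face of the nuclear pore, in which RANBP2 acts as a SUMO ligase and holds SUMO-modified RANGAP1, the activator of the Ran GTPase. Ranbp2 (chromosome 10) was at 16.50 and 14.97 TPM in the WT libraries, against 14.71 and 14.07 TPM in the K823R ones. Both K823R libraries lay below both WT libraries by a small margin, and the difference was -0.12 with SE 0.10 (limma adjusted p = 0.918), -0.054 without WT replicate 1 and -0.19 without WT replicate 2. Rangap1 (chromosome 15) was at 157 and 126 TPM in the WT libraries, against 159 and 143 TPM in the K823R ones. The groups overlapped, with replicate 2 the lower library in each. The difference was 0.097 with SE 0.13 (limma adjusted p = 0.941), and it was -0.063 without WT replicate 2 and 0.26 without WT replicate 1. Per length, Rangap1 was 9.52 and 8.39 times as abundant as Ranbp2 in WT and 10.8 and 10.1 times in K823R. The ratio did not overlap between the groups and was not tested. Ranbp2 alone was already apart, as were 34.0% of all genes tested.

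**Figure D3:**
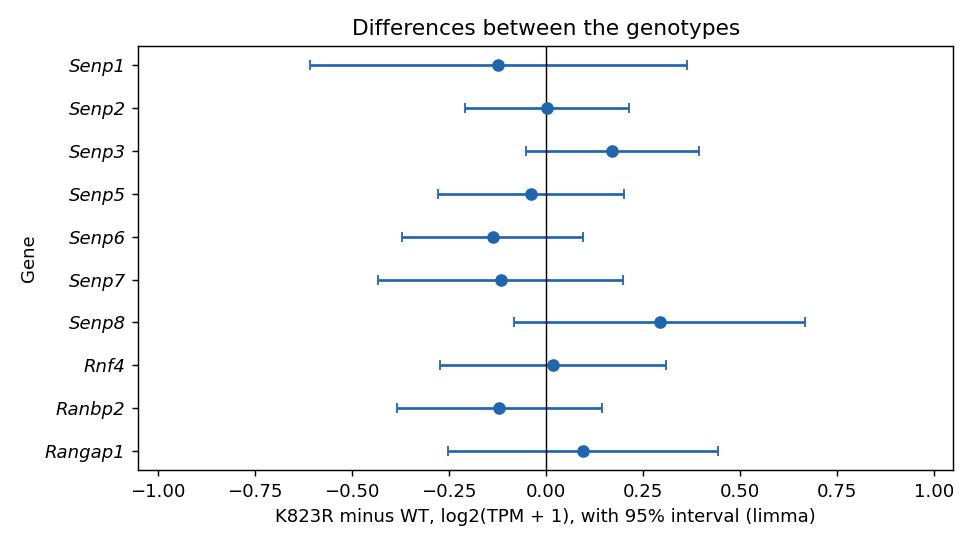
Differences of the 10 genes, log2(TPM + 1) in K823R minus that in WT, with their 95% intervals from limma (2 libraries per group). Every interval crosses 0, and all lie between -0.61 (Senp1) and 0.67 (Senp8).

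The groups did not overlap for 5 of the 10 genes (50%), with Senp3 and Senp8 higher and Senp6, Senp7 and Ranbp2 lower in K823R. Over all genes tested the groups did not overlap for 34.0%, with 19.4% higher and 14.6% lower. No test was made of that difference. K823R replicate 1 was the highest library for 5 of the 10 genes and WT replicate 1 for 4, while K823R replicate 2 was the lowest for 6.

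The 95% intervals of the 10 genes reflect the spread between these samples alone, which may be technical. They do not set a bound on the change between the genotypes. On the (TPM + 1) scale the 95% intervals, not adjusted for the number of genes, reached from 0.656-fold for Senp1 to 1.59-fold for Senp8. For Senp2, Senp5, Senp6 and Ranbp2 they stayed within 0.766-fold and 1.16-fold. Low genes are understated on this scale, and with a pseudocount of 0.1 TPM the interval of Senp1 was 0.611-fold to 1.33-fold and that of Senp8 0.949-fold to 1.64-fold. An adjusted p above the threshold does not show that the levels were equal.

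Leaving out 1 library turned the sign for Senp1, Senp2, Senp5, Rnf4 and Rangap1. Senp3 and Senp8 stayed above 0, and Senp6, Senp7 and Ranbp2 stayed below 0, in each of the 4 fits. These 5 genes are those whose groups did not overlap, which by itself fixes the sign of their differences when a library is left out. A lone library was taken to vary like the other group.

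**Figure D4:**
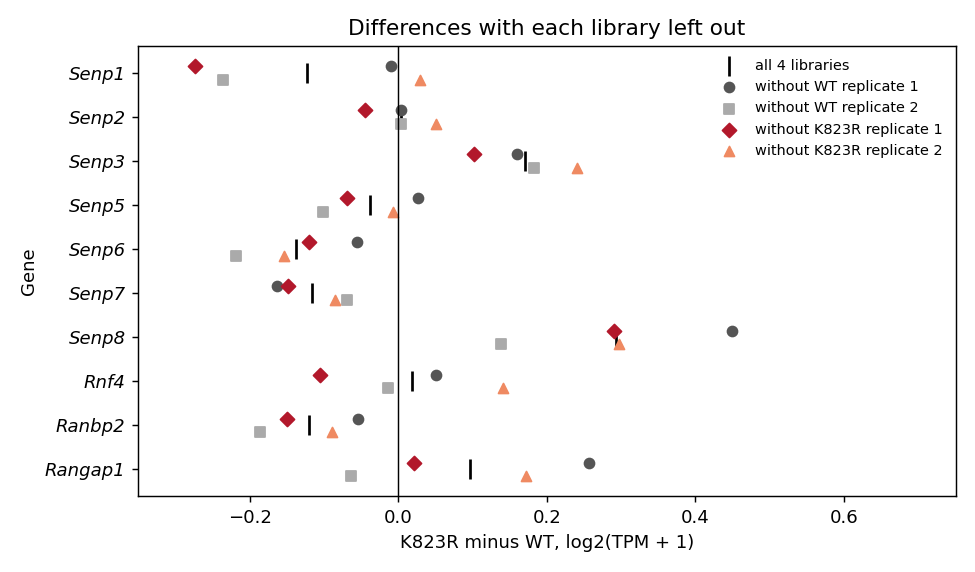
Differences of the 10 genes, log2(TPM + 1) in K823R minus that in WT, with all 4 libraries (vertical marks) and with each library left out (points). Senp8 runs from 0.14 without WT replicate 2 to 0.45 without WT replicate 1, and Rangap1 crosses 0.

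Some of the 10 genes share sequence with others. The protocol names no strand-marking step, so reads of genes that overlap on opposite strands may not be told apart. Exons of Senp5 overlap 131 exon bases of Ncbp2 on the opposite strand (44.27 to 47.61 TPM), those of Rangap1 overlap 65 bases of Zc3h7b (30.85 to 32.16 TPM) and those of Senp1 overlap 18 bases of Pfkm (146 to 170 TPM) and 462 bases of the antisense gene Gm26513 (0.07 to 0.24 TPM). Senp1, the lowest of the 10 genes, also shares stretches of 150 to 161 bases at 95% identity or more with other genes, among them Rab14 (138 to 150 TPM), Snrpc (99.49 to 111 TPM) and Malat1 (60.21 to 78.48 TPM), so its level is uncertain where reads could be split. Senp3 has a processed pseudogene, Gm6580, that matches it over 1355 bases at 96.2% identity and was listed at 0 to 0.27 TPM. A Senp6 transcript shares 245 bases at 96.7% identity with a transcript of Atp5l, a subunit gene of ATP synthase, which was at 747 and 859 TPM in the WT libraries, against 686 and 722 TPM in the K823R ones. The shared bases are 3.9% of that Atp5l transcript, while these values are for the whole gene. Atp5l was lower in both K823R libraries, as Senp6 was, and its part in the Senp6 values was not tested.

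The genes around these 10 in the SUMO, NEDD8 and Ran systems did not pass the test either. Of 91 genes in 8 pathway lists 90 were tested, and by limma 0 passed over all genes and 3 (3.33%) had an unadjusted p below 0.05, beside 4.76% of all genes. Of the 90, 49 were higher and 41 lower in K823R. The groups did not overlap for 31.1% of them, beside 34.0% of all genes.

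Among SUMO itself and its first enzymes no gene passed the test. The 6 genes of this list had a median difference of -0.020, with 2 higher and 4 lower, and the median ran from -0.055 without K823R replicate 1 to -0.0022 without WT replicate 2. Sumo2, which encodes the main SUMO of chains, was at 187 and 228 TPM in the WT libraries, against 188 and 184 TPM in the K823R ones (limma adjusted p = 0.918). WT replicate 2 stood above the other 3 libraries.

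SUMO ligases had the highest list median, 0.10, with 7 of 11 higher. It ran from 0.030 without WT replicate 2 to 0.16 without K823R replicate 2. Trim28, a corepressor that ligates SUMO, was at 50.75 and 45.21 TPM in the WT libraries, against 61.78 and 50.79 TPM in the K823R ones (limma adjusted p = 0.918). The K823R libraries lay above WT by a narrow margin. The 3 SUMO proteases outside the Senp family differed little: Desi1 was at 43.72 and 40.17 TPM in the WT libraries, against 46.05 and 42.79 TPM in the K823R ones, and Uspl1 at 26.89 to 29.12 TPM over the 4 libraries (limma adjusted p = 0.935 and 0.983).

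SUMO-binding proteins other than Rnf4 had the lowest list median, -0.16, with 3 of 8 higher. Sp100, of PML nuclear bodies, was at 6.29 and 5.52 TPM in the WT libraries, against 6.77 and 7.54 TPM in the K823R ones. Slx4, a scaffold of DNA repair nucleases, was at 3.82 and 3.59 TPM in the WT libraries, against 2.91 and 3.01 TPM in the K823R ones (limma adjusted p = 0.918 for each). The groups did not overlap for either, in opposite directions. With WT replicate 2 left out the median of these 8 genes was 0.049, and with K823R replicate 1 or 2 left out it was -0.068 or -0.25.

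The NEDD8 pathway, the setting of Senp8, had 5 of 19 genes higher and 14 lower, with a median of -0.045. That median ran from -0.067 with K823R replicate 1 left out to -0.022 with K823R replicate 2 left out. Over all genes tested 42.6% were lower. Cul3, a cullin scaffold of ubiquitin ligases that NEDD8 activates, went the other way from Nedd8, at 80.52 and 78.28 TPM in the WT libraries, against 92.69 and 89.56 TPM in the K823R ones (log2 difference 0.20, SE 0.070, unadjusted p = 0.0416, limma adjusted p = 0.918). The groups did not overlap for Cul3 or Nedd8.

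The Ran cycle (10 genes, 7 higher, median 0.032) and the nuclear pore (27 tested genes, 21 higher, median 0.073) form the setting of Ranbp2 and Rangap1. With WT replicate 2 left out the Ran cycle median was -0.0096 and the nuclear pore median 0.020, and with K823R replicate 1 left out they were 0.00058 and 0.024. With WT replicate 1 left out they were 0.048 and 0.13, and with K823R replicate 2 left out 0.053 and 0.12. Cse1l, the exporter of importin alpha, was at 44.66 and 36.95 TPM in the WT libraries, against 36.53 and 30.25 TPM in the K823R ones, and Rangrf, a Ran-binding guanine nucleotide release factor, at 19.09 and 19.34 TPM in the WT libraries, against 19.88 and 23.40 TPM in the K823R ones (limma adjusted p = 0.918 for each). Nup153, a basket nucleoporin known to bind SENP1 and SENP2, was at 9.65 and 9.67 TPM in the WT libraries, against 11.74 and 12.53 TPM in the K823R ones. For Nup153 the log2 difference was 0.30, SE 0.10 (unadjusted p = 0.0338, limma adjusted p = 0.918). Nup35, of the inner ring, was at 16.16 and 15.66 TPM in the WT libraries, against 20.03 and 18.68 TPM in the K823R ones (limma adjusted p = 0.918). Both nucleoporins were higher in both K823R libraries while Ranbp2, also a nucleoporin, was lower in both. Nup153 and Nup35 were named for the smallest p in their list, a choice that favours genes whose groups are apart. Among the 27 tested pore genes the groups were apart for 7 higher in K823R and for 2 lower, the direction of Ranbp2. Over all genes tested these shares were 19.4% and 14.6%. Nup58, listed under its older symbol Nupl1, was listed at 0 in every library and was not tested; an exact 0 in such a table can be a failed estimate, so it does not show that the gene is off.

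The nucleolar complex that matures the large ribosomal subunit and is a known target of SENP3 showed no common direction, with 3 of 6 genes higher and a median of 0.016, which was -0.0054 under median-of-ratios scaling, 0.066 with WT replicate 1 left out and 0.036 with K823R replicate 2 left out. Tex10 was at 12.47 and 10.13 TPM in the WT libraries, against 13.75 and 12.23 TPM in the K823R ones, and Pelp1 at 12.20 and 12.51 TPM in the WT libraries, against 12.85 and 13.65 TPM in the K823R ones (limma adjusted p = 0.918 and 0.935). The groups overlapped for Tex10 and not for Pelp1.

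**Figure D5:**
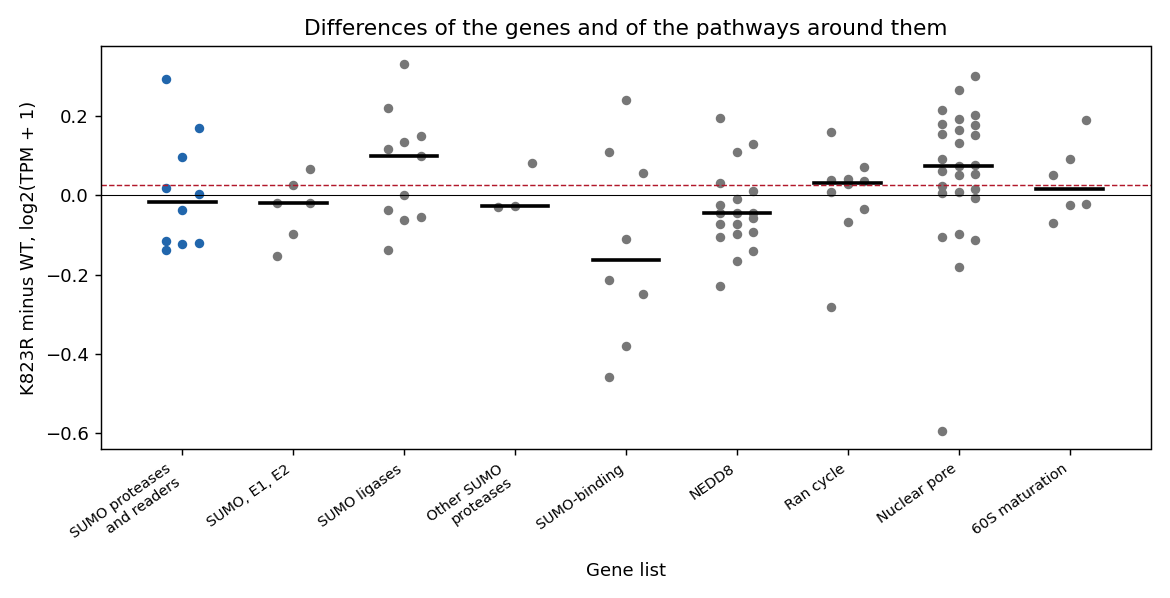
Differences, log2(TPM + 1) in K823R minus that in WT, of the 10 genes and of the tested genes of 8 pathway lists, 1 point per gene, with each list's median as a bar and the median of all genes tested (0.026) as a dashed line. The list medians lie between -0.16 and 0.10.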

How the data were processed

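RNA of 4 trigeminal ganglion libraries (2 WT, 2 K823R) was measured by poly(A) RNA sequencing with random priming, per the labels' protocols. The deposited values are TPM made by the authors. Per the submitters' processing notes, build GRCm38.p6 and the tools RSEM, HISAT2, fastp 0.19.5 and edgeR were used, with no roles stated. Strand setting and annotation release were not given in the sources used here. A deposited length column and the authors' mean TPM columns were not used in any test.

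The 15390 genes that averaged 1 TPM or more were tested with limma 3.58.1 in R 4.3.3 on log2(TPM + 1) with a variance trend, two-sided, Benjamini-Hochberg adjusted over all of them, threshold 0.05. The prior gave 2.67 degrees of freedom beside 2 residual ones. The fit was tested on simulated data, in which spread was not tied to level and changes were larger than those of the genes described. Changes as small as theirs were not covered. Coordinates and coding windows come from GENCODE M21, and shared sequence was searched with BLAST 2.17.0 (at least 95% identity over 150 bases). Plots used matplotlib 3.10.9.

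The 10 genes and all lists were chosen with earlier results of these data known. The genes named are those 10, Trpv1 and, in each pathway list, the 2 with the smallest p. Genes that overlap them or share sequence, cell type markers, and Morc3, Casp8ap2, Nup160 and Nup58 were named after their values were seen. Some genes and coding windows are not reported here. Protein sequences were not used here. Alternatives were another pseudocount, filters, scalings, priors, a replicate block and leaving out each library.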

Additional observations from a re-analysis of the deposited data

How the results depend on the processing

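No setting called any of the 10 genes: over 13 alternatives the smallest adjusted p among them was 0.656 (limma), without WT replicate 1. Over all genes limma called 1, and 0 with no filter, with no variance trend and with each library left out (0 in each of the 4 fits), 3 with a filter of at least 1 TPM in 2 libraries and 4 with a robust prior. With the replicate number as a replicate block 0 genes were called. Same-numbered libraries deviated together with a correlation of 0.074 over 9100 genes that averaged 10 TPM or more. That value rests on 1 difference per group for each gene, so it cannot settle whether the numbers pair the samples. With each number present in both groups, the block cannot change the 10 differences, and it called none of them. Signs turned for Senp2 under median-of-ratios (-0.019), upper-quartile (-0.013) and quantile (-0.022) scaling, and for Rnf4 under median-of-ratios scaling (-0.0043). Leaving out 1 library turned the sign for Senp1 (range -0.27 to 0.029), Senp2 (-0.044 to 0.051), Senp5 (-0.10 to 0.026), Rnf4 (-0.10 to 0.14) and Rangap1 (-0.063 to 0.26). Rnf4 was also -0.014 without WT replicate 2. The median of the 10 genes ran from -0.087 to 0.040 over the same 4 fits. The order of levels was the same in all 5 alternatives. Since TPM keeps no depth, counting error could not be separated from other spread, and alternatives that need counts were not run.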

Other observations

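Single libraries set several genes of the surrounding lists, chosen here after their values were seen. Morc3, which binds SUMO in nuclear bodies, was at 15.51 TPM in WT replicate 2 against 7.84 to 8.50 TPM in the other libraries (limma adjusted p = 0.918). Casp8ap2, which encodes the histone gene regulator FLASH, was at 5.44 TPM in WT replicate 1 against 2.32 to 2.94 TPM (limma adjusted p = 0.918). The nuclear pore gene with the widest difference, Nup160, had 8.32 and 8.80 TPM in the WT libraries, against 3.82 and 7.31 TPM in the K823R ones, with K823R replicate 1 the lowest. Its log2 difference of -0.59 was opposite in sign to that of 21 of the 27 tested nuclear pore genes (limma adjusted p = 0.918).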
